A study of Mus musculus with 6 samples.

Results

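Niacr1, Gpr81, O3far1 and Sucnr1 encode 4 cell surface receptors through which fat cells sense metabolites, and they make up 4 of the 22609 genes listed for this series. They were chosen by symbol from the count lists, and they were selected on their measured difference between the groups compared here, so their differences are a description and no test of them is given. The samples were primary adipocytes, obtained by differentiating stromal vascular cells of inguinal fat (iWAT, a subcutaneous white depot) from male C57BL6 mice, labelled as 3 weeks old. Of the 6 samples, 3 received a control vector and 3 overexpressed miR-182-5p, a microRNA. The labels name electroporation, whereas the methods of the study describe a synthetic mimic, a lipid reagent and mice of another age. The cultures come from the whole stromal fraction of a depot, and nothing says whether samples are separate cell preparations, so the spread between samples may be technical. RNA was measured as reads per gene from poly(A)-selected libraries, with 25869810 to 28796712 reads on genes per library.

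All 4 receptors belong to the G protein-coupled family. Niacr1 (now Hcar2) binds niacin and the ketone body β-hydroxybutyrate, and Gpr81 (now Hcar1) binds lactate. Both couple to inhibitory G proteins, which lower cAMP and thereby restrain lipolysis, the release of fatty acids from stored triglyceride. O3far1 (now Ffar4) responds to long-chain fatty acids, including omega-3 fatty acids, and is known in adipocytes for effects on glucose uptake and lipolysis. Sucnr1 binds succinate, an intermediate of the citric acid cycle, and is found on adipocytes and on macrophages. Niacr1, Gpr81 and O3far1 are known to be induced as fat cells mature.

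Whether the receptor transcripts carry matches to the overexpressed microRNA can be read from their sequences. The mature microRNA and the other microRNA discussed below are shown from RefSeq (GRCm38.p6), with the seed, bases 2 to 8 counted from the 5′ end, in capitals.
miR-182-5p: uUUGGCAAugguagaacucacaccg
miR-30c-5p: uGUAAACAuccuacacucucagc
The second one is shown because of a mature sequence that the methods of the study give under the name of miR-182-5p. That sequence has the seed GUAAACA of the miR-30 family in place of UUGGCAA, and its last bases differ from those of miR-30c-5p. It stands in the section on RNA extraction and qRT-PCR, and no sequence is given for the mimic. Here miR-30c-5p stands for the seed only, and which member of the miR-30 family the methods print was not determined. The miR-182-5p target site printed for the luciferase reporter ends in the first letters of TTGCCAA, the miR-182-5p match explained below. Whether the cells carried miR-182-5p or the sequence given in the methods was not tested.

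A match to the miR-182-5p seed is written TTGCCAA (bases 2 to 8) or TGCCAAA (bases 2 to 7, followed by an A), letters that overlap each other in TGCCAA, and a match to the miR-30 seed is TGTTTAC or GTTTACA by the same rules. They were searched on the sense strand of the annotated transcript of each receptor (GENCODE M21, GRCm38), where capitals mark the match.
Gpr81 3′-UTR, miR-182-5p (TGCCAAA): gttaatactgaTGCCAAAgggtttgggag
Gpr81 3′-UTR, miR-30 family (TGTTTAC): aactgagagccTGTTTACggcagcaatgg
O3far1 coding sequence, miR-182-5p (TTGCCAA): ggccttcacgtTTGCCAActctgccctaa
The first lies at bases 1702 to 1708 of the 1835-base 3′-UTR of Gpr81, within chr5:123876852-123876880 on the minus strand, and 16.3% of 2360 tested genes with a 3′-UTR of like length (0.8 to 1.25 times) held the same letters. The second lies at bases 686 to 692 of that 3′-UTR, within chr5:123877868-123877896, and its letters were in 18.6% of those genes. The third lies at bases 932 to 938 of the 1086-base coding sequence of O3far1, within chr19:38113839-38113867 on the plus strand, and 10.8% of 2724 genes with a coding sequence of like length held its letters. The 3′-UTRs of Niacr1 (786 bases), O3far1 (259 bases) and Sucnr1 (560 bases) held 0 copies of these letters. Each share above counts only the letters found, in that region alone, whereas all the letters were searched in whole transcripts. The share of genes with any of the matches was not taken, and it can only be as large or larger.

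Niacr1 and Gpr81 are neighbours. In GENCODE M21 Niacr1 is a gene of 1 exon at chr5:123863570-123865499 and Gpr81 a gene of 1 exon at chr5:123876736-123880020, both on the minus strand, with 11236 bases and 0 protein-coding genes between them. O3far1 has 3 exons at chr19:38097071-38114263 and Sucnr1 has 2 at chr3:60081869-60087566, both on the plus strand. The exons of the 4 genes share 0 bases with other annotated genes. The submitters' processing notes name the older build mm9, so the models behind the counts may differ from these.

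Levels of 3 of the 4 receptors were lower and that of 1 was higher in adipocytes overexpressing miR-182-5p. O3far1 was at 46.3% of its control mean, Niacr1 at 62.7% and Gpr81 at 63.6%, while Sucnr1 stood at 151%. All 4 passed the filter on low counts, and in each of them the groups did not overlap, as was so for 54.8% of all genes tested. Over the 13117 genes tested, 7.45% passed the cutoffs of the study, a 1.5-fold change with an adjusted p under 0.05, and 5.48% did so as lower and 1.97% as higher. The median log2 fold change over these genes was -0.004. In bulk RNA, fewer cells that express a receptor and less of its RNA per cell cannot be told apart.

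**Figure D1:**
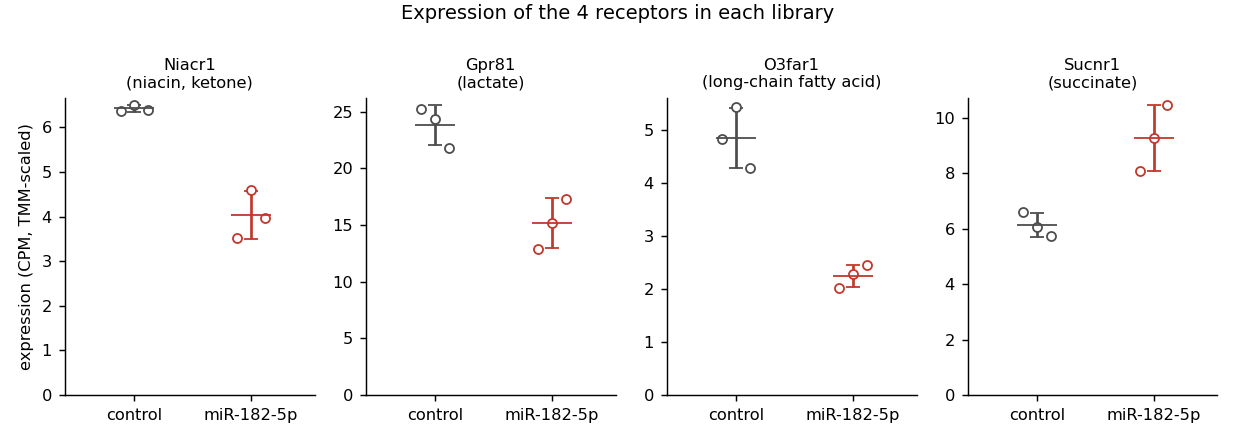
Expression in CPM (reads per 1000000 reads on genes, with library sizes scaled by TMM; linear axes from 0) of Niacr1, Gpr81, O3far1 and Sucnr1 in the 3 control libraries (grey) and the 3 libraries with miR-182-5p (red). Circles are libraries, and the line and bars are the mean ± SD. The red circles lie below the grey ones for Niacr1, Gpr81 and O3far1 and above them for Sucnr1.

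The receptor for niacin and ketones, Niacr1, had 162, 170 and 167 reads in the 3 controls, and with miR-182-5p it had 103, 121 and 112 (replicates 1 to 3 in order, here and throughout). In CPM, the reads per 1000000 reads on genes with library sizes scaled by TMM, these were 6.36, 6.51 and 6.40 against 3.53, 4.59 and 3.97. The control samples were nearly level, with a coefficient of variation of 1.18%, and the samples with miR-182-5p spread more, at 13.3%. The means were 6.42 ± 0.0758 and 4.03 ± 0.535 CPM (SD, n = 3 each). On the log2 scale the difference was -0.68 with a standard error of 0.11 in edgeR's quasi-likelihood fit over all genes.

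Gpr81, the lactate receptor, had the most reads of the 4 among controls, with 643, 636 and 570 in controls, and 377, 401 and 489 with miR-182-5p. That is 25.3, 24.4 and 21.8 CPM against 12.9, 15.2 and 17.3 CPM. Every control sample lay above every sample with miR-182-5p, the closest pair being control replicate 3 and miR-182-5p replicate 3. The means were 23.8 ± 1.77 and 15.2 ± 2.20 CPM (SD, n = 3 each), and the log2 fold change was -0.65 (standard error 0.09).

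The neighbours Niacr1 and Gpr81 kept about the same proportion to each other. In a library, Gpr81 had 3.97, 3.74 and 3.41 reads per Niacr1 read in controls and 3.66, 3.31 and 4.37 with miR-182-5p. These ratios of raw reads overlapped between the groups, with means of 3.71 ± 0.279 and 3.78 ± 0.536 (SD, n = 3 each).

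The fatty acid receptor O3far1 showed the largest difference of the 4 and had the fewest reads, 123, 142 and 112 in controls and 59, 60 and 69 with miR-182-5p. In CPM it stood at 4.83, 5.44 and 4.29 against 2.02, 2.28 and 2.44. The highest sample with miR-182-5p was well under the lowest control. The means of 4.85 ± 0.573 and 2.25 ± 0.213 CPM (SD, n = 3 each) differ by -1.11 on the log2 scale (standard error 0.14), a 2.16-fold lower level. Among all genes tested, 1.17% had a log2 fold change at least as low, against 4.64% for Niacr1 and 4.99% for Gpr81. Relative to Gpr81, O3far1 had 0.191, 0.223 and 0.196 reads per read in controls and 0.156, 0.150 and 0.141 with miR-182-5p, with no overlap.

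Sucnr1, the succinate receptor, went the other way. It had 168, 158 and 150 reads in controls and 236, 245 and 296 with miR-182-5p, which is 6.60, 6.05 and 5.75 CPM against 8.08, 9.30 and 10.5 CPM. All samples with miR-182-5p were above all controls. The means were 6.13 ± 0.432 and 9.29 ± 1.20 CPM (SD, n = 3 each), a 1.51-fold higher level (0.60 on the log2 scale, standard error 0.11), and 2.23% of the genes tested had a log2 fold change at least as high. The balance between the lactate and the succinate receptor was narrow within each group. Gpr81 had 3.83, 4.03 and 3.80 reads per Sucnr1 read in controls and 1.60, 1.64 and 1.65 with miR-182-5p.

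Per length of transcript the order of the receptors also differed between the groups. In control adipocytes Gpr81 was at 7.25 ± 0.540 RPKM (CPM per kilobase of exon; SD, n = 3), above Sucnr1 at 3.74 ± 0.264, O3far1 at 3.46 ± 0.409 and Niacr1 at 3.33 ± 0.0392 RPKM. The samples of Sucnr1 overlapped with those of O3far1 and the samples of O3far1 with those of Niacr1. Between neighbours in this order, only the first place of Gpr81 exceeded the spread. Sucnr1 and Niacr1, which are not neighbours in it, did not overlap, and Sucnr1 was the higher. With miR-182-5p the order was Sucnr1 at 5.66 ± 0.732, Gpr81 at 4.61 ± 0.671, Niacr1 at 2.09 ± 0.277 and O3far1 at 1.60 ± 0.152 RPKM (SD, n = 3 each). The samples of the first pair overlapped, and the other neighbours in this order did not. By level, the 4 receptors lay near the middle of the tested genes or lower. In controls, 37.4% (Niacr1) to 57.3% (Gpr81) of the tested genes with a known length lay below them, and with miR-182-5p 24.8% (O3far1) to 50.3% (Sucnr1).

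**Figure D2:**
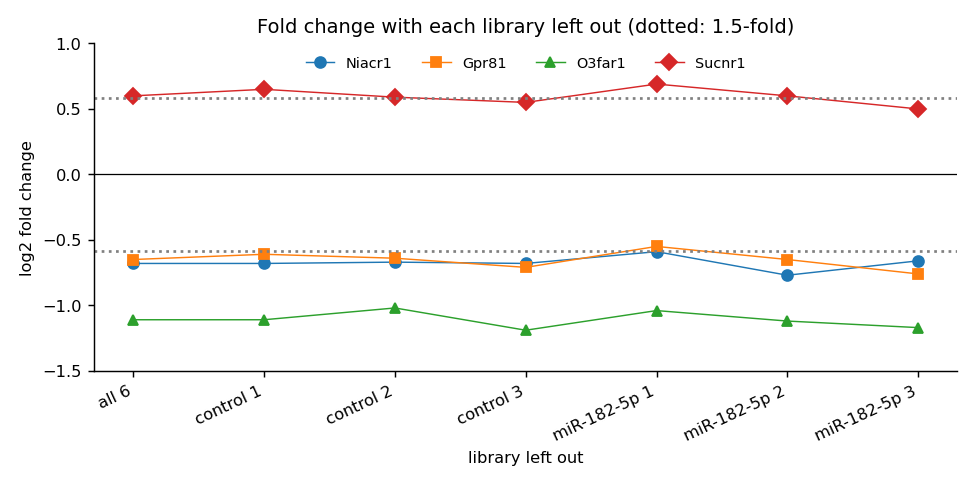
Log2 fold change (miR-182-5p minus control) of the 4 receptors with all 6 libraries and with each library left out in turn, from the edgeR fit over all genes. Dotted lines mark a 1.5-fold change (0.585). O3far1 stays between -1.19 and -1.02, while Gpr81 and Sucnr1 cross the dotted line in 1 and 2 of the 6 fits.

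Niacr1, Gpr81 and Sucnr1 lay near the 1.5-fold line (0.585 as a log2 value) and O3far1 lay well past it. Leaving out each of the 6 libraries in turn gave -0.77 to -0.59 for Niacr1, -0.76 to -0.55 for Gpr81, -1.19 to -1.02 for O3far1 and 0.50 to 0.69 for Sucnr1. Niacr1 and O3far1 were past the line in all 6 of these fits. Gpr81 fell short of it without miR-182-5p replicate 1 (-0.55), and Sucnr1 did so without control replicate 3 (0.55) and without miR-182-5p replicate 3 (0.50).

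Adipocyte markers summed lower in the same libraries. Of 15 adipocyte markers, all tested, 4 fell by the cutoffs of the study, 0 rose and 11 did not pass, where 5.48% of all genes tested fell, and their median log2 fold change was -0.42. Their summed level was 13791 to 14633 CPM in controls and 9783 to 11062 CPM with miR-182-5p. Most of it came from Fabp4 and the lipase gene Lpl, without which the sums were 4449 to 4598 CPM and 3550 to 4030 CPM. The 4 that fell were Thrsp, a lipogenesis factor (log2 fold change -1.26), Retn, which encodes resistin (-0.85), Fabp4, the fatty acid carrier of adipocytes (-0.68), and Dgat2, a triglyceride synthesis enzyme (-0.61), with adjusted p of at most 1.45e-06 by the quasi-likelihood test of edgeR, adjusted after Benjamini and Hochberg across all genes. Dgat2 lost its call without control replicate 2 (-0.58) or without miR-182-5p replicate 1 (-0.52). The hormone gene Adipoq, at 933, 946 and 906 CPM in controls and 616, 683 and 727 CPM with miR-182-5p, did not overlap between the groups and missed the 1.5-fold line (-0.46). Plin1, which coats the lipid droplet, stood at 663, 658 and 667 CPM in controls and 577, 666 and 666 CPM with miR-182-5p, and these groups overlapped. Higher values that missed the 1.5-fold line were those of Tusc5 (0.53), the lipid droplet gene Plin4 (0.50) and Lep, which encodes leptin (0.37), with adjusted p of at most 0.00276 in the edgeR test and no overlap between the groups.

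Set against Plin1 or Adipoq in the same library, the receptors kept their directions by different margins. Per 1000 Plin1 reads, Gpr81 had a mean of 36.0 ± 2.84 reads in controls and 23.7 ± 1.96 with miR-182-5p (SD, n = 3 each), and O3far1 had 7.33 ± 0.919 and 3.53 ± 0.126. Per 1000 Adipoq reads the margin for Gpr81 was small, with 25.6 ± 1.48 reads in controls and 22.4 ± 1.43 with miR-182-5p (SD, n = 3 each), the lowest control being at 24.1 and the highest library with miR-182-5p at 23.8. Niacr1 per 1000 Adipoq reads was at 6.82, 6.88 and 7.06 against 5.73, 6.73 and 5.45, again with a small gap. O3far1 per 1000 Adipoq reads was at 63.7% of the control ratio and Sucnr1 at 208%. Ratios to the other markers were not taken. As percent of the control mean, Fabp4 with miR-182-5p was at 58.8%, 62.3% and 66.0%, within the range of Gpr81 (54.2%, 63.9% and 72.7%). Niacr1 was at 54.9%, 71.5% and 61.8%. The log2 fold change of Retn (-0.85) was below those of Niacr1 and Gpr81, and that of Thrsp (-1.26) was below those of all 4 receptors. miR-182-5p replicate 1 was the lowest library of its group for all 4 receptors and for Adipoq, Plin1 and Fabp4. The part of the adipocyte state in the levels of the receptors was not tested.

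**Figure D3:**
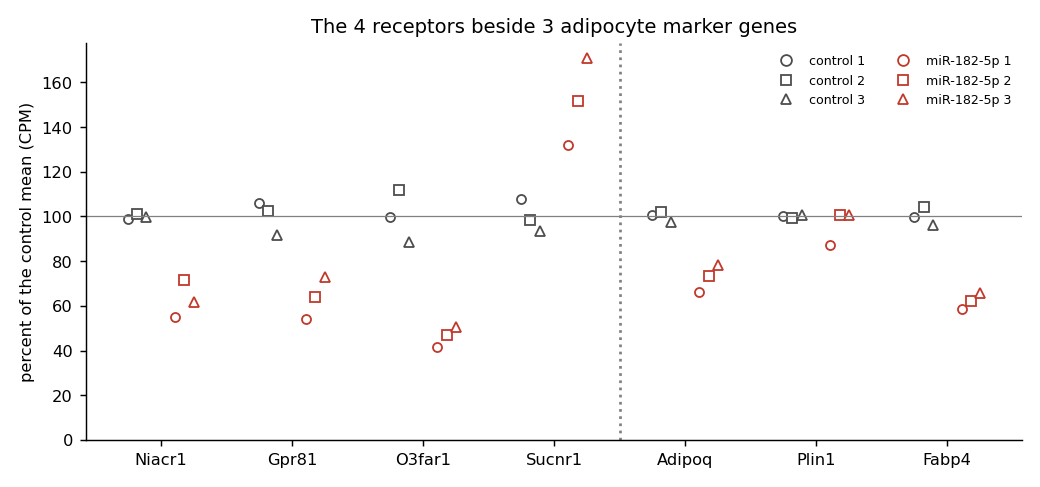
Level of the 4 receptors (left of the dotted line) and of the adipocyte genes Adipoq, Plin1 and Fabp4 (right) in each library, as percent of the control mean in CPM. Grey symbols are control and red symbols miR-182-5p libraries, with 1 shape per replicate number. O3far1 lies at 41.6% to 50.4% with miR-182-5p, Adipoq at 66.4% to 78.4% and Plin1 at 87.1% to 101%.

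Immune cells also use Niacr1 and Sucnr1, and their defining markers had few reads. Of 12 macrophage markers 8 had at most 10 reads in every library, the defining genes Emr1 and Ptprc among them with 2 to 6 and 0 to 4 reads. The summed level of the 12 was 15.2 to 16.2 CPM in controls and 12.8 to 16.4 CPM with miR-182-5p, most of it from Cd68 and Csf1r. Of the 4 tested, Lyz2 fell (log2 fold change -0.63, adjusted p = 0.0324), a call that DESeq2 and 4 of the 6 fits without 1 library did not make, and 3 did not pass. Of 7 neutrophil and mast cell markers listed, 5 had at most 10 reads everywhere, and 0 of the 1 tested passed in edgeR or DESeq2 or had an unadjusted p under 0.05. S100a8 had 2 to 8 reads. The list summed to 1.45 to 1.91 CPM in controls and 0.959 to 1.40 CPM with miR-182-5p.

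Of 11 preadipocyte and fibroblast markers tested, 5 fell and 0 rose, where 5.48% of all genes tested fell. Among the 5 were Pdgfra, a receptor of mesenchymal cells (log2 fold change -0.86, adjusted p = 2.87e-11), and Cd34 (-1.53, adjusted p = 1.71e-09). The collagen Col1a1, at -0.05 with a standard error of 0.04, did not pass, and Thy1 was on the other side at 0.19 (adjusted p = 0.000347, edgeR), short of 1.5-fold. These markers summed to 41141 to 42969 CPM in controls and 36176 to 37388 CPM with miR-182-5p. Of 4 endothelial markers tested, 1 fell, the angiopoietin receptor Tek (-1.31, adjusted p = 1.49e-06), while the VEGF receptor Kdr was at 0.43 (adjusted p = 0.0899, edgeR). The endothelial list summed to at least 8.89 CPM in each control and at most 6.27 CPM in each library with miR-182-5p, and Pecam1 had 3 to 11 reads. Without Tek the sums overlapped, at 3.22 to 3.29 CPM and 3.11 to 4.04 CPM. The part of these cells in the levels of the receptors was not tested.

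Other receptors for metabolites, nucleosides and protons mostly had few reads in these adipocytes. Of 26 such genes, 16 had at most 10 reads in every library and 7 of these had 0, among them the fatty acid receptor Ffar1, the α-ketoglutarate receptor Oxgr1 and the calcium sensor Casr, and 8 had enough reads to be tested. One of the 8, Gpr35, rose and 7 did not pass, where 7.45% of all genes tested passed. The median log2 fold change of the 8 was -0.12. Gpr35, a receptor for which kynurenic acid is a proposed ligand, had 120, 100 and 100 reads in controls and 254, 254 and 297 with miR-182-5p. Its mean of 4.12 ± 0.510 CPM rose to 9.62 ± 0.910 CPM (SD, n = 3 each). This was 1.22 on the log2 scale (SE 0.11, adjusted p = 7.1e-07, edgeR), against 0.60 for Sucnr1.

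Among the 7 that did not pass, Ffar2, which senses short-chain fatty acids such as acetate, was at 12.9 ± 1.10 CPM in controls and 12.6 ± 1.36 CPM with miR-182-5p (SD, n = 3 each), and its log2 difference was -0.03 with a standard error of 0.09. The adenosine receptors Adora1 and Adora2b missed the 1.5-fold line, and their groups did not overlap. Adora1, which like Niacr1 and Gpr81 couples to inhibitory G proteins, was at 0.24 (standard error 0.06, adjusted p = 0.0054, edgeR), and Adora2b, which couples to the stimulatory G protein, was at -0.54 (standard error 0.11, adjusted p = 0.00129). The nucleotide receptors P2ry2 (-0.21) and P2ry6 (-0.30) and the adenosine receptor Adora2a (0.33) had adjusted p from 0.12 to 0.48 in the edgeR test.

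**Figure D4:**
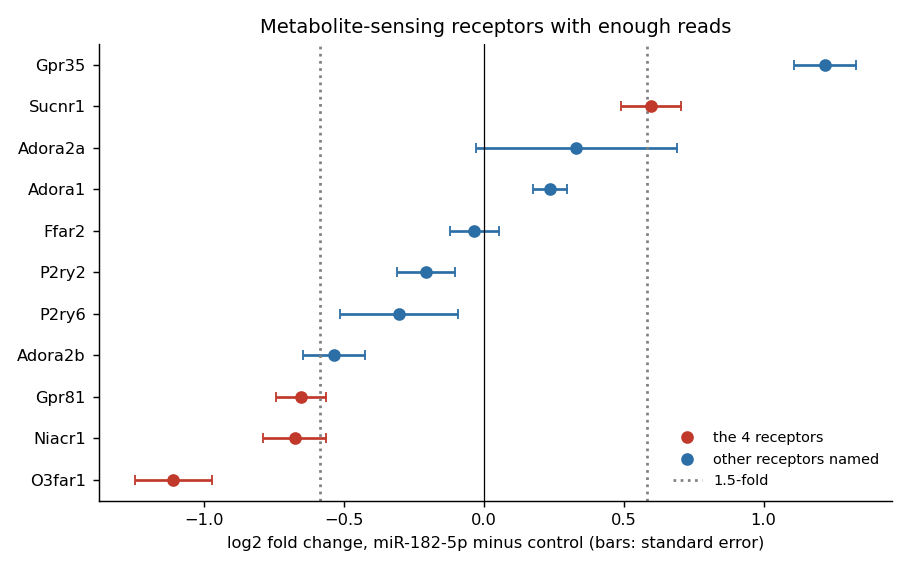
Log2 fold change (miR-182-5p minus control) with its standard error for the 4 receptors (red) and 7 other metabolite-sensing receptors with enough reads (blue). Dotted lines mark 1.5-fold. Gpr35 (1.22) is the highest point and O3far1 (-1.11) the lowest.

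Downstream of the receptors, the share of G protein genes that passed was near that of all genes. Of 25 genes tested for G protein subunits, arrestins, receptor kinases and RGS proteins, which speed the switching-off of G proteins, 1 rose, 1 fell and 23 did not pass, where 7.45% of all genes tested passed, with a median log2 fold change of -0.02. Rgs2 fell from 32.8 ± 1.13 to 11.1 ± 0.680 CPM (SD, n = 3 each), or -1.56 on the log2 scale (adjusted p = 1.36e-10, edgeR), and Rgs4 rose (0.61, adjusted p = 0.00146), though not past 1.5-fold without control replicate 2 (0.50) or miR-182-5p replicate 1 (0.55). Gnas, the stimulatory subunit, was at 0.04 (adjusted p = 0.273, edgeR). The β subunit gene Gnb1 was at 0.50 (adjusted p = 5.19e-09, edgeR), short of 1.5-fold, with no overlap between the groups.

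Of 28 genes tested for cAMP and lipolysis, 4 fell, 0 rose and 24 did not pass, with a median log2 fold change of -0.15, where 5.48% of all genes tested fell. The adenylyl cyclase gene Adcy6 (log2 fold change -1.21) and Prkacb, a catalytic subunit of protein kinase A (-0.75), belong to the pathway that Niacr1 and Gpr81 restrain. Pnpla2, which encodes the first enzyme of triglyceride breakdown (-0.69), and Mgll, which encodes the last (-0.70), were the other 2, and all 4 had adjusted p of at most 7.39e-09 in the edgeR test.

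Genes that make, carry or use the ligands were examined by ligand. For lactate, 1 of 9 tested genes rose and 2 fell, where 1.97% of all genes tested rose and 5.48% fell. Slc16a3, which exports lactate from cells, rose from 93.2 ± 7.89 to 184 ± 5.73 CPM (SD, n = 3 each, log2 fold change 0.98, adjusted p = 1.19e-09, edgeR). Ldhb, a lactate dehydrogenase subunit gene (-0.60), and Brp44l, now Mpc1, for the mitochondrial pyruvate carrier (-0.69), fell, and the call of Ldhb was lost without control replicate 1 or without miR-182-5p replicate 1 (-0.58 in both fits). Ldha, the more abundant subunit gene, was at -0.09.

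Among genes for ketones and niacin, Oxct1, needed to burn ketones, was at -0.37 (adjusted p = 4.84e-07, edgeR). Nampt was at 0.08 (adjusted p = 0.0359, edgeR). Both were short of 1.5-fold, with no overlap between the groups. Results of the other genes of this list are not reported here. For succinate, 0 of 12 tested genes passed both cutoffs by edgeR or DESeq2, where 7.45% of all genes tested passed in edgeR. Of the 12, 9 passed the adjusted p alone in edgeR, 8 lower and 1 higher. Among all 13117 genes tested 6124 did so, 3087 lower and 3037 higher. An unadjusted p under 0.05 was found for 9 of the 12. The succinate dehydrogenase gene Sdha was at -0.13 (standard error 0.04) and the succinate carrier Slc25a10 at -0.03 (0.05).

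For long-chain fatty acids, 3 of 17 tested genes fell and 0 rose (5.48% of all genes tested fell), with a median log2 fold change of -0.21. They were the fatty acid transporter gene Slc27a1 (-0.73), Acsl1, which activates fatty acids (-0.74), and Fabp4, with adjusted p of at most 3.24e-08 in the edgeR test. Lpl, which frees fatty acids from lipoproteins, was at -0.47 (adjusted p = 1.7e-06, edgeR). The desaturase Scd1 was at -0.17 (adjusted p = 0.0168, edgeR). Both were short of 1.5-fold, with no overlap between the groups.

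**Figure D5:**
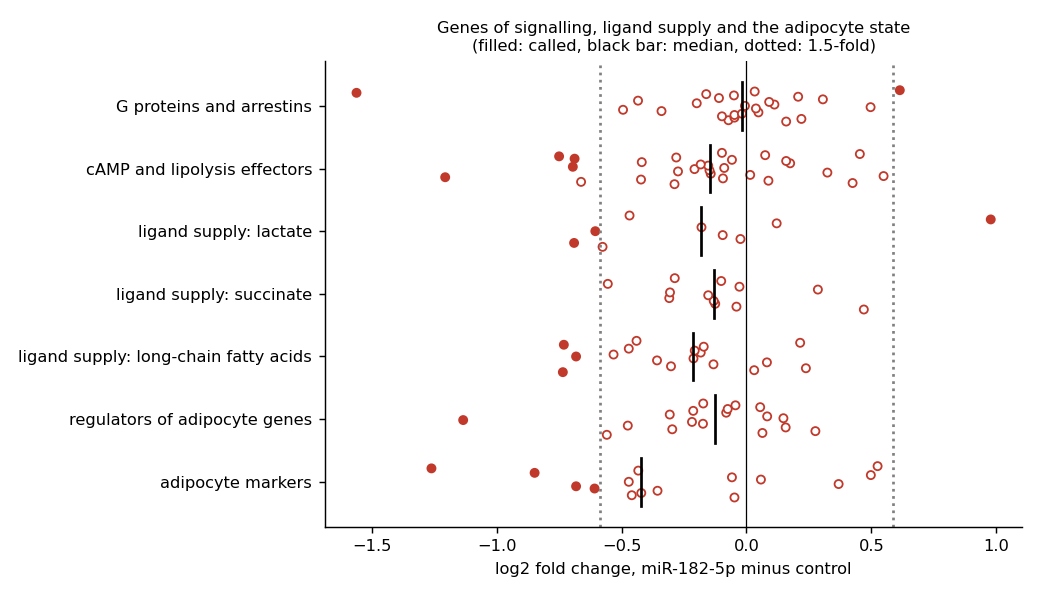
Log2 fold change (miR-182-5p minus control) of every tested gene in 7 gene lists, 1 circle per gene. Filled circles passed both cutoffs, black bars are list medians and dotted lines mark 1.5-fold. The medians lie between -0.42 (adipocyte markers) and -0.02 (G proteins and arrestins).

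Transcription factors of fat cells include Pparg and Cebpa, under which genes such as Gpr81 and Niacr1 are known to be switched on. Of 18 such regulators tested, 1 fell, 0 rose and 17 did not pass, a share near the 5.48% of all genes that fell, with a median log2 fold change of -0.13. Without the fold cutoff, 9 of the 18 passed the adjusted p as lower and 2 as higher. Among all 13117 genes tested, 3087 did so as lower and 3037 as higher. Nr1h3, a nuclear receptor for oxysterols, fell (-1.13, adjusted p = 3.14e-09, edgeR). Cebpa was at -0.56 (adjusted p = 4.84e-07, edgeR), just short of 1.5-fold, and Srebf1 at -0.17. Pparg was at -0.31 (adjusted p = 3.38e-06, edgeR), also short of 1.5-fold, with no overlap between the groups. Of 3 brown and beige fat markers tested, 0 passed in edgeR or DESeq2. By p alone 1 was under 0.05, unadjusted and adjusted (edgeR), Cox8b with a log2 fold change of -0.47. The adjusted p alone was passed by 6124 of the 13117 genes tested. Ucp1, the uncoupling protein of thermogenic fat, had 0 to 6 reads.

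Promoter sequences, 250 bases before to 50 after the RefSeq start (GRCm38.p6), were at hand for 3 of the 4 receptors and are shown because these 3 did not move in 1 direction. They were searched on both strands for the nuclear receptor half-site AGGTCA, the C/EBP core TTGCNNAA, the TATA box TATAAA and the GC box GGGCGG, which occur in 16.3%, 10.8%, 13.6% and 35.7% of the 32851 promoters in the table. No motif holds another. Capitals mark the matches.
Gpr81 (chr5:123879954-123880253, minus strand): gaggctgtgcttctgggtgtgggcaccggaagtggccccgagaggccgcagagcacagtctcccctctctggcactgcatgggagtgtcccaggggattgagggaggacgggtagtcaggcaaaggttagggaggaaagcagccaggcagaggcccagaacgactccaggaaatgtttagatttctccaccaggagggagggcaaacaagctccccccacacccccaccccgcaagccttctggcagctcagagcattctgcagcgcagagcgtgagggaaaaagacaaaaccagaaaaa
O3far1 (chr19:38096829-38097128, plus strand): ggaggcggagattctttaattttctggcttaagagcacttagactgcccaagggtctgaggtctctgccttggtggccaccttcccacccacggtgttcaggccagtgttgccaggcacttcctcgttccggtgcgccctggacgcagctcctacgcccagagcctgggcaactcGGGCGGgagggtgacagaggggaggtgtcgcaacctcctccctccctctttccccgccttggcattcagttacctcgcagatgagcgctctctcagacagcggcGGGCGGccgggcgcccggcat
Sucnr1 (chr3:60081619-60081918, plus strand): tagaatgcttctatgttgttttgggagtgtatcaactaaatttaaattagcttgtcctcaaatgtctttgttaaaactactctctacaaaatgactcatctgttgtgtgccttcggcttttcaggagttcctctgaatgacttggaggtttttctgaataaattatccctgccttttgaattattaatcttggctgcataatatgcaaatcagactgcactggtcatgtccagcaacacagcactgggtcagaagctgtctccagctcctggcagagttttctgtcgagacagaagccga
O3far1 held 2 copies of GGGCGG and 0 of the other letters, and Gpr81 and Sucnr1 held 0 of all 4.

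Many genes followed the same profile over the 6 libraries, a likeness that the difference between the groups dominates. By Pearson's r of log2(CPM + 0.1) over 6 libraries and 12131 genes with a mean of at least 1 CPM, the genes most like Niacr1 were Tcta, Pde7b and Abca9 (r = 0.997 to 0.998), and those most like Gpr81 were Hadha, Fxyd1 and Gm6484 (0.997 to 0.999). O3far1 was most like Idh3a, Pole and Csgalnact2 (r = 0.999 each), and Sucnr1 most like Cspg4, Ahi1 and Ap3d1 (0.996 to 0.999). An r of at least 0.9 was reached by 1031 genes for Sucnr1 and up to 1969 for O3far1. Among the receptors, Niacr1, Gpr81 and O3far1 had an r of 0.931 to 0.969 with each other and of -0.842 to -0.708 with Sucnr1. These values share the libraries and the group difference by which the receptors were chosen.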

How the data were processed

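Libraries of poly(A) RNA were made with a strand-specific kit from 3 control samples and 3 samples overexpressing miR-182-5p. Per sample, the authors deposited a list of raw counts by gene symbol. The submitters' processing notes name bcl2fastq, TopHat2, HTSeq and mm9. Versions, gene annotation and strand setting are not given in the sources used here. The 5 tally lines, which hold for each library 3810342 to 4271805 reads outside genes and 19363264 to 21673840 alignments that were not unique, were left out. Replicates of a group differed by more than sampling noise (chi-square per degree of freedom 1.93 to 5.97).

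Counts were tested in R 4.3.3 with edgeR 4.0.16 (TMM, filterByExpr at its minimum of 10 counts, glmQLFit with glmQLFTest, 2 groups, no block), two-sided, with Benjamini-Hochberg adjustment over 13117 genes. A gene that rose, fell or was called passed a 1.5-fold change and an adjusted p under 0.05. With 3 against 3 samples an exact permutation test could not go below p = 0.1, so none was used. The script was tested on simulated data. RPKM used exon lengths of GENCODE M21, matched for 12961 of the 13117 genes. Named genes are the receptors, all tested genes of the receptor list, and per other list up to 4 called genes with the smallest p and the 2 most expressed. Further named are the markers Adipoq, Plin1, Ptprc, Emr1, Pecam1 and S100a8 and the 3 genes most like each receptor. Ffar1, Oxgr1, Casr and Ucp1, each with few reads, and Tusc5, Plin4, Lep, Thy1 and Pparg were named after their values were seen. The marker sums without Tek or without Fabp4 and Lpl were chosen in the same way. Results of some genes that the rule names are not reported here. Alternatives were DESeq2 1.42.0, voom from limma 3.58.1, other normalizations and filters, a replicate block and leaving out each library. Receptors and lists were chosen with earlier results of these data known. Python 3.11.15 with pandas 2.3.3 and numpy 2.4.6 made tables and matplotlib 3.10.9 the figures.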

Additional observations from a re-analysis of the deposited data

How the results depend on the processing

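Each receptor kept its direction under all alternatives run, and its log2 fold change moved by less than the spread between replicates. Over these, and apart from the fits without 1 library, it ranged from -0.69 to -0.67 for Niacr1, from -0.67 to -0.65 for Gpr81, from -1.12 to -1.10 for O3far1 and from 0.59 to 0.60 for Sucnr1. The replicate numbers showed no sign of pairing, with correlations of deviations between same-numbered samples of -0.185, -0.0436 and -0.0785. With 3 samples per group this check cannot exclude that same-numbered samples shared a preparation. With the replicate block the receptors had -0.68, -0.66, -1.11 and 0.59 in the order above, and 925 genes were called, 921 of them among the 977 called without it. Without a fold cutoff, 6124 of the 13117 genes tested passed the adjusted p (3037 higher, 3087 lower, against 258 and 719). Past it were 3 of the 8 other receptors tested (1 with the fold cutoff) and 31 of 53 genes for signal transduction (6). For ligand supply these were 35 of 47 (7), for adipocyte genes 24 of 36 (5) and for other cell types 11 of 20 (7). Calls among the other receptors, with the fold cutoff, numbered 2 with no filter on low counts, P2ry14 being added. They numbered 1 to 2 with each library left out, Adora2b passing without miR-182-5p replicate 1 (-0.60). Among 53 genes named beside the receptors, 8 of the fits changed sign, all of genes not called and all with 1 library left out, over which these genes ranged as follows, Cpa3 (-0.28 to 0.19), Elovl3 (-0.42 to 0.11), Ffar2 (-0.11 to 0.05), Plin1 (-0.09 to 0.01) and Slc25a10 (-0.07 to 0.05). The other calls lost were of Dgat2, Ldhb, Lyz2 and Rgs4, and those gained were of Adora2b, Cebpa and Kdr. O3far1, with 59 to 142 reads per library, had the largest standard error of the 4 receptors, and reads of this number limit its precision.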

Other observations

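Metabolite receptors below the filter on low counts had too few reads for a comparison of their own. P2ry14, which binds UDP-glucose, had 9, 8 and 6 reads in control replicates 1 to 3 and 4, 0 and 1 with miR-182-5p. The proton sensor Gpr4 had 16, 10 and 10 reads against 7, 8 and 4. The bile acid receptor Gpbar1 had 1, 4 and 1 reads in controls and 0 in each library with miR-182-5p. These 3 genes were picked after their values were seen.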
